A study of Danio rerio with 6 samples.

Results

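The miR-9 arms and miR-124 of the zebrafish embryo were described in 6 small RNA libraries. Members were every mature name dre-miR-9 or dre-miR-124 with any arm suffix, which gave 3 of the 230 mature miRNAs in the table. These were dre-miR-9-5p, dre-miR-9-3p and dre-miR-124. They occupied 13 of the 286 rows, because the table has a row for each precursor and mature pair, and rows were averaged by mature name. All 3 members passed the filter on low values in every comparison.

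The study asked which miRNAs move when Tbx5a, the zebrafish form of the transcription factor mutated in Holt-Oram syndrome, is depleted. Wild-type AB embryos received 1.5 ng of morpholino in the yolk at the 1-cell stage, either MO-Tbx5a, directed at the translational start of tbx5a, or a control oligonucleotide, MO-Ct. Every library was a pool of 50 whole embryos, collected at 24 or 48 hours post fertilization (hpf). There were 2 libraries for each morpholino at 24 hpf, from separate embryo batches, and 1 for each at 48 hpf. All groups therefore share the injection and the strain, and no group was left uninjected. A morpholino of this kind blocks translation, so small RNA reads hold no check of the knockdown.

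MicroRNAs are cut from hairpin precursors, and the strands from the 5′ and 3′ sides of the stem are the 5p and 3p arms. miR-9 is transcribed mainly in neural progenitors of the vertebrate brain. In zebrafish it shapes the midbrain-hindbrain boundary by repressing Fgf pathway and Her genes, while in human cells its 5p and 3p arms repress subunits of the REST complex. miR-124 accumulates in differentiating and mature neurons, where in mouse and human cells it represses transcripts of non-neuronal cells.

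Several genes encode each mature sequence. RefSeq (assembly GRCz12tu, used for names and neighbours only) lists 7 mir-9 loci, of which 6 had rows here and 4 had rows for both arms. The locus mir-9-6 had no row. Of the 6 mir-124 loci, 3 had a row, and these carried no arm suffix. Most mir-9 loci lie beside paralogous genes. The locus mir-9-1 lies next to mef2d, mir-9-2 next to mef2ca, mir-9-4 next to mef2b within tmem161a, and mir-9-5 between tmem161b and mef2cb. The Mef2 genes encode transcription factors of muscle and neurons. The loci mir-9-3 and mir-9-6 lie beside rhcgb and rhcga, which encode ammonium transporters. Apart from these, mir-9-7 lies between ftr65 and slc25a42. Among the mir-124 loci, mir-124-3 lies between ythdf3 and bhlhe22, and mir-124-2 lies within ift172. RefSeq placed no other miRNA gene within 10 kb of any of these loci.

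Reads recovered from the table summed to between 1699876 and 3148888 per library over mature names, a sum that may hold a read under several names and is not the number of reads sequenced. Values are normalized reads, that is reads divided by a size factor per library, and 1 read was worth 0.466 to 1.87 normalized reads. Shares of a library are taken of the sum of normalized reads over mature names, so a read may count several times in them. The embryo batches of a group differed well beyond counting error (chi-square over its degrees of freedom, 103.7 in MO-Ct and 92.74 in MO-Tbx5a). The miR-430 family, which clears maternal transcripts in the early embryo, took 46.0% to 58.7% of normalized reads at 24 hpf. Its share had dropped to 15.2% (MO-Ct) and 5.15% (MO-Tbx5a) in the 48 hpf libraries as labelled. Of the marker lists examined, the neural list, which holds miR-124 but not miR-9, summed to 0.247% to 1.62% of a library, and all 13 of its entries had rows. The muscle, epidermis and blood lists, which mark the other tissues of a whole embryo, summed to 0.226% to 1.09%, 1.88% to 3.19% and 0.00495% to 0.0502%. In the early embryo list, 2 of 6 entries had no row. The direction of every 48 hpf morpholino value rests on the names of 2 libraries, which the values here cannot check by themselves. The study's own 48 hpf fold changes put miR-9-5p and miR-124 lower in MO-Tbx5a, the direction that the exchanged names give here. The same holds across its 48 hpf list of modulated miRNAs, such as miR-34a, miR-21 and miR-430a (higher there) and miR-190b (lower there). The exception is miR-7b, lower in both. The study also counts more miRNA reads in MO-Tbx5a than in MO-Ct at 48 hpf. The recovered sums run the other way, 1940326 (labelled MO-Tbx5a) against 2542309 (labelled MO-Ct). Among the 24 hpf libraries they keep the study's order. Whether the names were exchanged was not tested. For the 3 members, values with the names exchanged are given beside the fold changes, the ratios between morpholinos and the difference between stages. The counts of 2-fold ratios at 48 hpf are also given both ways. All other 48 hpf values, shares and ranks stand under the deposited names only.

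dre-miR-9-5p was the most abundant member in every library. At 24 hpf its value was 2677.69 and 2912.02 normalized reads in the MO-Ct batches, and 1832.25 and 2300.08 in the MO-Tbx5a batches. The 48 hpf values were 11062.6 (labelled MO-Ct) and 44772.3 (labelled MO-Tbx5a). The lowest 48 hpf value thus exceeded every 24 hpf value, and both MO-Tbx5a batches lay below both MO-Ct batches at 24 hpf. Over all miRNAs tested, 54 of 214 (25.2%) had the first order and 62 of 210 (29.5%) the second. In order of level, the 48 hpf MO-Tbx5a library came above the 48 hpf MO-Ct library, then MO-Ct at 24 hpf (2795 ± 166, SD, n = 2) and MO-Tbx5a at 24 hpf (2066 ± 331, SD, n = 2). The test given below did not separate the last pair of neighbours. By rank among the 230 mature miRNAs, miR-9-5p stood between 43 and 59 at 24 hpf, at 21 in the 48 hpf MO-Ct library and at 6 in the 48 hpf MO-Tbx5a library. Its share of the normalized reads summed over mature names was 0.0576% to 0.109% at 24 hpf, and 0.933% and 4.22% at 48 hpf. Left without the miR-430 family, the 48 hpf shares were 1.10% and 4.44%.

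dre-miR-9-3p followed at a much lower level. At 24 hpf it reached 115.358 and 84.99 normalized reads in the MO-Ct batches, against 76.73 and 84.865 in the MO-Tbx5a batches. At 48 hpf it reached 340.17 (labelled MO-Ct) and 1386.43 (labelled MO-Tbx5a). The 24 hpf groups were separated by 84.99 against 84.865 only, a gap smaller than the value of 1 read, while both 48 hpf libraries stood clear of all 24 hpf libraries. The group means at 24 hpf were 100 ± 21.5 for MO-Ct and 80.8 ± 5.75 for MO-Tbx5a (SD, n = 2 each), neighbours in order that the test did not separate. These values rest on few reads, 41 to 95 at 24 hpf and 730 and 2533 at 48 hpf.

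dre-miR-124, the marker of differentiated neurons, was low throughout. In the MO-Ct batches at 24 hpf it was 175.53 and 155.587 normalized reads, and in the MO-Tbx5a batches 140.37 and 134.65. In the 48 hpf libraries it was 236.26 (labelled MO-Ct) and 720.86 (labelled MO-Tbx5a). Again the 24 hpf groups did not overlap, an order found in 62 of 210 miRNAs (29.5%). Both 48 hpf values were above all 24 hpf values, as in 54 of 214 (25.2%). The 24 hpf means were 166 ± 14.1 for MO-Ct and 137.5 ± 4.04 for MO-Tbx5a (SD, n = 2 each). By rank miR-124 stood at 131 of 230 or beyond in every 24 hpf library, at 118 in the 48 hpf MO-Ct library and at 86 in the 48 hpf MO-Tbx5a library.

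**Figure D1:**
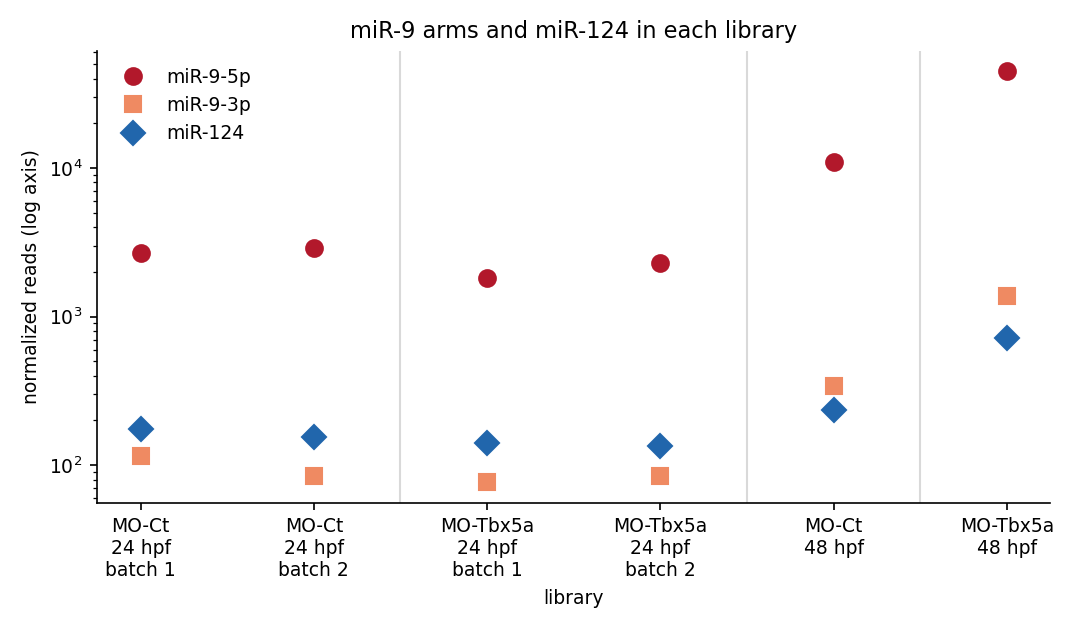
Normalized reads (log axis) of miR-9-5p, miR-9-3p and miR-124 in each of the 6 libraries, with 1 point per library and no error bars. Each member is highest in the 48 hpf library labelled MO-Tbx5a and next highest in that labelled MO-Ct, and the 4 libraries at 24 hpf lie close together, for miR-9-5p between 1832.25 and 2912.02.

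The comparison of morpholinos at 24 hpf asked whether Tbx5a depletion moves the members early. All 3 were on average lower in MO-Tbx5a, and none was called, a call being an adjusted p under 0.05 by limma on log2(value + 2), two-sided, with Benjamini-Hochberg adjustment over the 210 miRNAs tested. Log2 fold changes are on this scale throughout, which understates the change of low values. miR-9-5p differed by a log2 fold change of -0.44 (SE 0.16), with an unadjusted p of 0.00703 in the limma fit and an adjusted p of 0.0642. The study's own count test (DESeq) did call miR-9-5p lower in MO-Tbx5a at 24 hpf, at an adjusted p under 0.05. Whether miR-9-5p is called thus depends on the test. Neither miR-9-3p nor miR-124 is on the study's 24 hpf list. For miR-9-5p the 2 batches differed by 0.12 within MO-Ct and by 0.33 within MO-Tbx5a on the log2 scale. For miR-9-3p the change was -0.29 (SE 0.30, adjusted p = 0.628, limma), and for miR-124 it was -0.26 (SE 0.26, adjusted p = 0.613, limma). Leaving out a library in turn gave -0.61 to -0.28 for miR-9-5p, -0.50 (without batch 2 of MO-Ct) to -0.07 (without batch 1 of MO-Ct) for miR-9-3p and -0.35 to -0.18 for miR-124. Across all miRNAs tested, 9 of 210 were called lower in MO-Tbx5a (4.29%) and 16 in either direction (7.62%). With both MO-Tbx5a batches below both MO-Ct batches in 62 of 210 miRNAs (29.5%), the same order in all 3 members is a description and not a result. Other scalings of the libraries moved the median log2 fold change of all miRNAs from -0.01 to between -0.08 and 0.17, and the calls from 7 higher and 9 lower to 3 and 14 (median-ratio size factors), 2 and 0 (totals without miR-430) or 0 and 0 (totals). Relative to that median miR-9-5p stayed at -0.43, miR-9-3p at -0.27 to -0.28 and miR-124 at -0.25. By limma-voom on recovered reads none of the 3 was called either, and the unadjusted p was under 0.05 for miR-9-5p only, in both fits. In bulk embryos, fewer cells of a type and less RNA per cell cannot be told apart.

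The other neural miRNAs gave a similar account at 24 hpf. None of the 11 tested was called by limma, 2 of them had an unadjusted p under 0.05 (44 of 210 over all miRNAs), and their median log2 fold change was -0.16, against -0.01 over all miRNAs. The muscle and blood lists, at -0.34 and -0.41, lay lower. miR-153c, a brain miRNA, was at -0.53 (SE 0.20, adjusted p = 0.0642, limma) and miR-219, required for oligodendrocyte maturation in mouse and zebrafish, at -0.47 (SE 0.18, adjusted p = 0.0762, limma). miR-153b stood on the other side at 0.19 (SE 0.17, adjusted p = 0.598, limma).

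From 24 to 48 hpf all 3 members rose. In the additive fit of stage and morpholino over the 6 libraries, miR-9-5p rose by 3.22 on the log2 scale (SE 0.49, adjusted p = 0.00249, limma), the third highest change among 214 miRNAs tested. miR-9-3p rose by 2.91 (SE 0.49, adjusted p = 0.00341, limma), the sixth highest. miR-124 rose by 1.44 (SE 0.41, adjusted p = 0.0215, limma) and ranked 35 of 214. Higher at 48 hpf were 40 of 214 miRNAs (18.7%), and 112 were called in either direction (52.3%). Both 48 hpf libraries exceeded all 24 hpf libraries for 54 of 214 (25.2%), the 3 members among them.

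The rise differed in size between the 48 hpf libraries, of which there is 1 per morpholino. Within MO-Ct as labelled, miR-9-5p was 3.96-fold, miR-9-3p 3.40-fold and miR-124 1.43-fold higher at 48 hpf, in normalized reads. Within MO-Tbx5a as labelled the folds were 21.7, 17.2 and 5.24 for the same 3 members. With the 48 hpf names exchanged they were 16.0, 13.8 and 4.35 within MO-Ct and 5.35, 4.21 and 1.72 within MO-Tbx5a. The exchange cannot change the value of the rise over both morpholinos, because the additive fit is balanced. The call stayed for each member. On the log2(value + 2) scale the rise as labelled, MO-Ct against MO-Tbx5a, was 1.99 against 4.45 for miR-9-5p. It was 1.76 against 4.07 for miR-9-3p and 0.51 against 2.37 for miR-124. The call for miR-124 was lost when the 48 hpf library labelled MO-Tbx5a was left out (0.51, adjusted p = 0.154, limma), when batch 2 of MO-Ct at 24 hpf was (1.54, adjusted p = 0.0515) and when batch 2 of MO-Tbx5a at 24 hpf was (1.30, adjusted p = 0.0625). Leaving out the 48 hpf library labelled MO-Tbx5a also lowered the miR-9 values to 1.99 for the 5p and 1.76 for the 3p arm, both still called.

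The scale of any stage change depends on how libraries are scaled, since a few families take most reads at 24 hpf. With the deposited size factors the median log2 change of all miRNAs was -0.29. With equal library totals it was 1.11, and the calls went from 40 higher and 72 lower to 154 higher and 12 lower. Equal totals without miR-430 gave a median of 0.21 with 63 higher and 33 lower, and median-ratio size factors gave 0.03 with 53 higher and 50 lower. Relative to that median the members hardly moved. miR-9-5p was 3.49 to 3.51 above it under the 4 scalings, miR-9-3p 3.19 to 3.20 and miR-124 1.71 to 1.73.

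The neural miRNAs other than the members rose with stage in 6 of 12 tested, with none lower, and their median log2 change was 1.17 against -0.29 over all miRNAs. miR-129-5p rose by 2.20 (SE 0.53, adjusted p = 0.0115, limma). miR-138, which is enriched in brain, rose by 1.64 (SE 0.31, adjusted p = 0.00524, limma), close to miR-124. miR-218b, of a family that marks motor neurons, rose by 1.62 (adjusted p = 0.00578, limma), and miR-137, miR-153c and miR-153a rose by 1.61, 1.504 and 1.18. Both miR-9 arms thus lay above the highest of this list, and miR-124 lay within it. miR-219, miR-128, miR-132-3p, miR-218a, miR-212 and miR-153b were not called, with values from -0.05 to 1.17. Beside this, all 4 epidermal miRNAs and all 4 miR-430 members tested were called lower at 48 hpf, with medians of -1.22 and -3.85. Of all 214 miRNAs tested, 72 were called lower. These calls rest on the deposited size factors. As a share of the summed normalized reads, the epidermal list was higher at 48 hpf (3.19% and 2.51%) than at 24 hpf (1.88% to 2.16%).

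**Figure D2:**
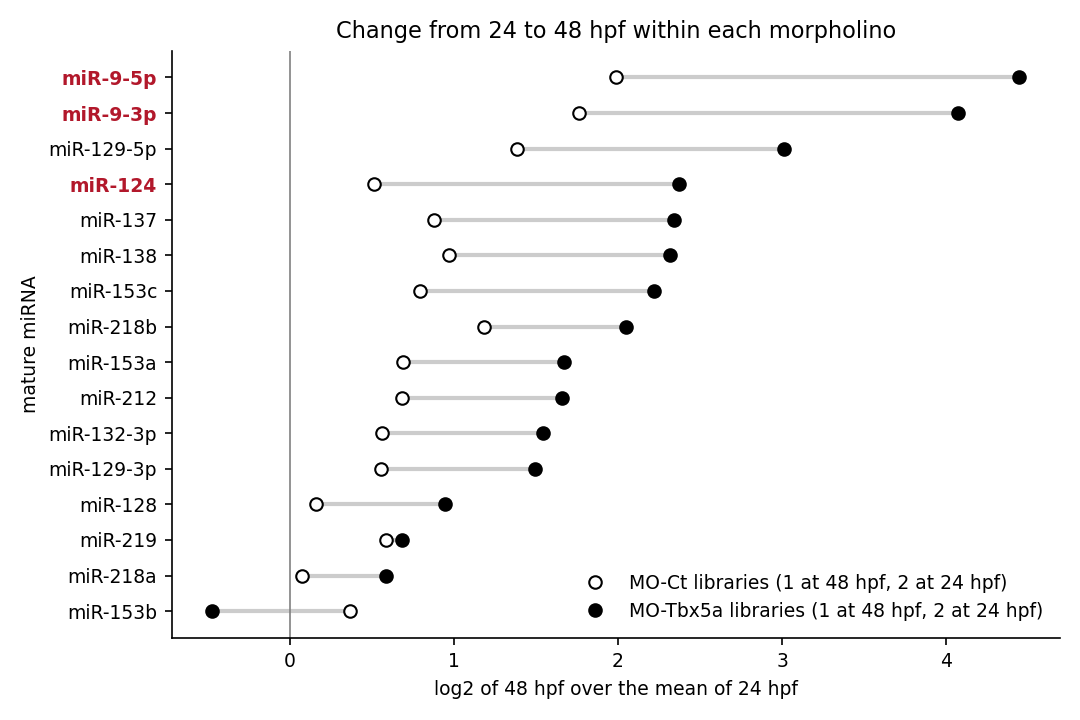
Log2 change from 24 to 48 hpf within each morpholino for the 3 members (bold red) and the other neural miRNAs; open points are MO-Ct libraries and filled points MO-Tbx5a libraries, each 1 library at 48 hpf over the mean of 2 at 24 hpf on the log2(value + 2) scale, with no error bars. As labelled, miR-9-5p (1.99 and 4.45) and miR-9-3p (1.76 and 4.07) lie farthest to the right. Under the same labels the filled point lies right of the open one for every miRNA except miR-153b.

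At 48 hpf the morpholinos were compared in 1 library each, so no test was made. The library labelled MO-Tbx5a was higher than that labelled MO-Ct for each member. miR-9-5p had 81798 reads in the former and 23724 in the latter, a 4.05-fold difference in normalized reads with a 95% exact interval of 3.99 to 4.11. miR-9-3p was 4.08-fold higher (3.75 to 4.43), and miR-124, with 1317 and 507 reads, was 3.05-fold higher (2.75 to 3.38). These intervals cover the counting error of reads only, and they say nothing of the spread between embryo pools. Reads without molecular identifiers are not independent molecules, so the intervals may be too narrow even for the counting of molecules. With the names exchanged the same members would be lower in MO-Tbx5a, at 0.247-fold, 0.245-fold and 0.328-fold. By log2 ratio (2.02, 2.02 and 1.60 for miR-9-5p, miR-9-3p and miR-124) the members ranked 8, 7 and 14 of all miRNAs whose value reached 10 in either library. In all, 36 of them were at least 2-fold higher in the library labelled MO-Tbx5a (16.4%), the 3 members included. Exchanged names would make these 36 lower, with the members at the same ranks counted from the lowest, and 20 miRNAs at least 2-fold higher (9.13%). The 2 arms of miR-9 had nearly the same ratio, and the interval for miR-124 lay below both of theirs.

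Of the 13 other neural miRNAs, 11 were above a ratio of 1 at 48 hpf and 4 were at least 2-fold higher, with a median log2 ratio of 0.87 against -0.06 over all miRNAs. The 4 were miR-129-5p, miR-138, miR-212 and miR-153a, at 2.68-fold, 2.29-fold, 2.62-fold and 2.06-fold. For miR-212 the interval ran from 1.32 to 5.49, as it had 29 and 13 reads. miR-153b and miR-219 were lower, at log2 ratios of -0.66 and -0.38. Each of the 3 members stood above all 13 of these as labelled, and would stand below all 13 with the names exchanged.

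**Figure D3:**
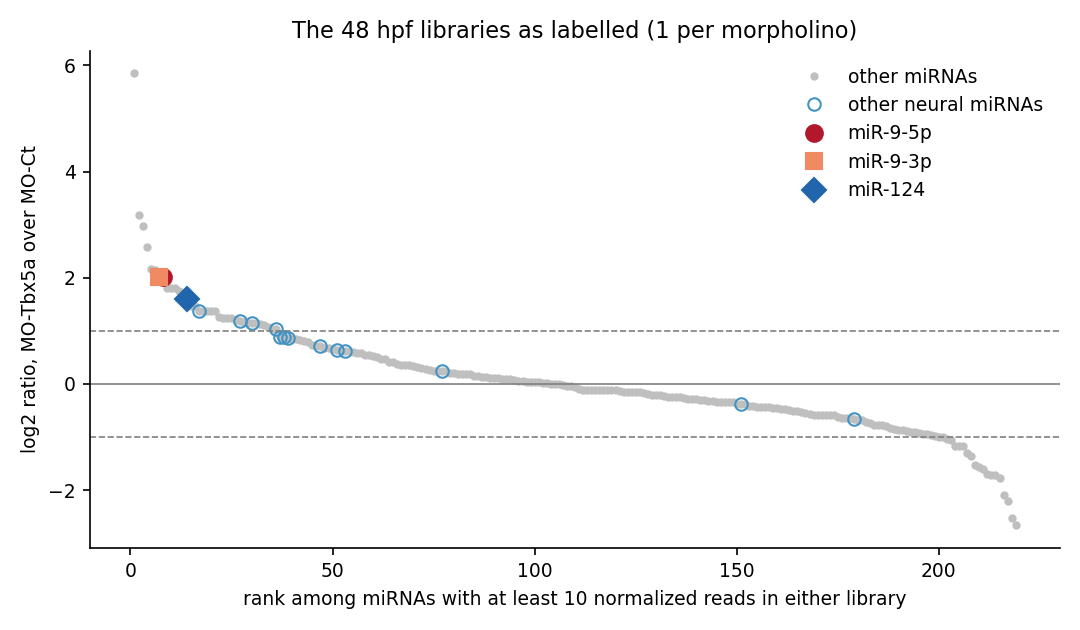
Log2 ratio of the 48 hpf library labelled MO-Tbx5a over that labelled MO-Ct for all miRNAs with a value of 10 or more in either, ordered by rank, with dashed lines at a 2-fold difference; there is 1 library per morpholino and no error is drawn. The miR-9 arms (both 2.02) and miR-124 (1.60) lie at ranks 8, 7 and 14, to the left of every other neural miRNA (open circles).

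Other measures differed between these 2 libraries as well. The library labelled MO-Tbx5a had the lower miR-430 share, 5.15% against 15.2%, and the higher summed neural list, 1.62% against 0.993%. Its blood list was higher, 0.0502% against 0.0227%, and its epidermis (2.51% against 3.19%) and muscle (0.977% against 1.09%) lists were lower. The library labelled MO-Tbx5a also lay farther from the log2 mean of the 4 libraries at 24 hpf than that labelled MO-Ct. This held for 103 of the 112 miRNAs called by stage (92.0%), and for 170 of all 214 (79.4%). With 1 library for each morpholino, the morpholino, the developmental progress of an embryo pool and the library itself cannot be told apart for miR-9 or miR-124.

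The difference between the stages in the morpholino contrast was tested in a fit of the 4 groups. It took the spread from the 24 hpf batches alone, so the lone 48 hpf libraries were assumed to vary like them, an assumption these data cannot check, and the p-values hold only under it. The log2 difference was 2.46 for miR-9-5p (SE 0.28, adjusted p = 1.44e-15, limma), 2.31 for miR-9-3p (SE 0.41, adjusted p = 5.63e-07, limma) and 1.86 for miR-124 (SE 0.40, adjusted p = 3.90e-05, limma). With the 48 hpf names exchanged these values became -1.57, -1.73 and -1.34. Over all miRNAs, 34 of 214 were called with a higher value at 48 hpf (15.9%), and 37 with a lower one. Under other scalings the median of all miRNAs lay between -0.27 and 0.14 instead of -0.07, and the calls were 29 higher and 18 lower (totals), 19 and 35 (totals without miR-430) or 37 and 23 (median-ratio size factors). All 3 members were called under each. The p-values hang on the estimate of the spread: with no variance trend they became 0.0186 for miR-9-5p and 0.0209 for both other members (adjusted, limma). Without batch 1 or batch 2 of MO-Ct at 24 hpf, miR-124 was no longer called, at 1.78 (adjusted p = 0.0588) and 1.95 (adjusted p = 0.0524), while both miR-9 arms still were. In the neural list, miR-153c, miR-138, miR-153a and miR-128 were called higher and miR-153b lower, the median being 0.98 against -0.07 over all 214.

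The 5p arm of miR-9 had more reads than the 3p arm in every library. The ratio of miR-9-5p to miR-9-3p was 23.2 and 34.3 for MO-Ct at 24 hpf and 23.9 and 27.1 for MO-Tbx5a. The 48 hpf libraries gave 32.5 (MO-Ct) and 32.3 (MO-Tbx5a). The 3p arm thus made up 2.84% to 4.13% of miR-9 reads. The 5p value covers 6 loci and the 3p value 4, so this is not the share within the same hairpins. The arms may also be captured with different efficiency, so the change of the ratio can be read and not its size. The 95% exact intervals for counting error were wide at 24 hpf, from 17.5 to 33.5 in batch 1 of MO-Tbx5a, and narrow at 48 hpf, from 30.2 to 35.03 and from 31.0 to 33.6. The 48 hpf intervals overlap, although each arm differed about 4-fold between those libraries.

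No difference in the arm ratio was detected. By morpholino at 24 hpf the log2 ratio differed by -0.15 (SE 0.24, adjusted p = 0.789, limma over 24 hairpins with both arms above the filter). That sign turned to 0.12 without batch 2 of MO-Ct, the library with the highest ratio at 24 hpf. None of the 24 hairpins was called (0%), and 2 had an unadjusted p under 0.05, neither of them miR-9. By stage the miR-9 ratio differed by 0.30 (SE 0.21, adjusted p = 0.238, limma). In that comparison 10 of 24 hairpins were called (41.7%), among them miR-133b and miR-133a of muscle, at -3.32 and -2.15, and miR-181a at 2.26. The log2 ratio of miR-9 covered a range of 0.55 over the 6 libraries. It was smaller for 3 of the 24 hairpins, and the median range was 0.95.

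**Figure D4:**
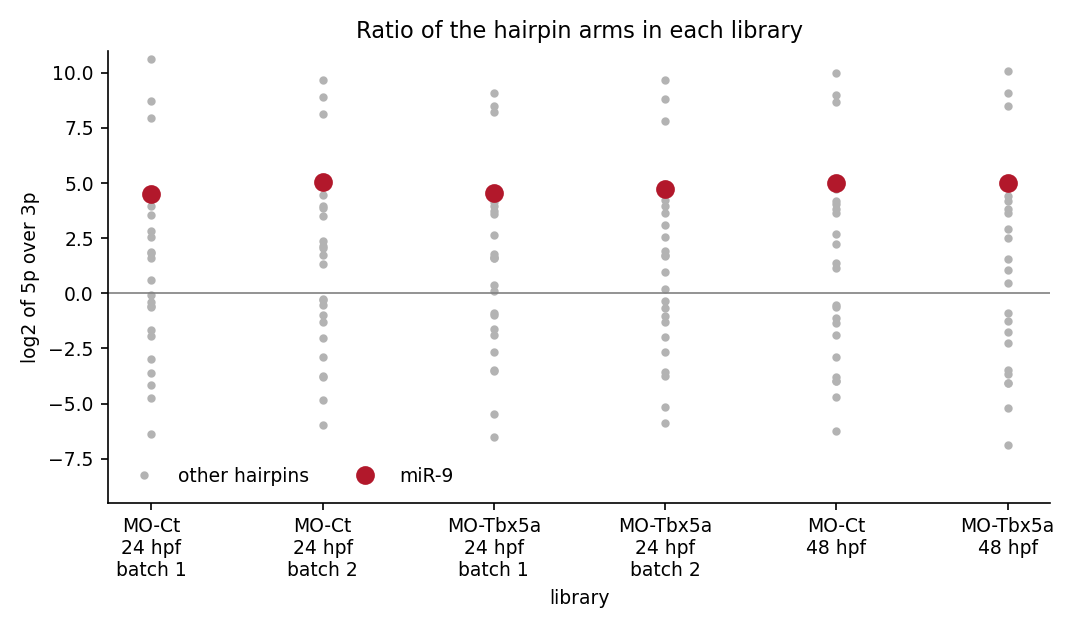
Log2 ratio of the 5p to the 3p arm in each library for miR-9 (red) and the other 23 hairpins with both arms above the filter (grey), 1 point per hairpin and library. The miR-9 ratio lies between 4.51 and 5.07 in all 6 libraries, a range of 0.55.

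The precursor rows of a member held nearly the same number of reads. For miR-9-5p the 6 rows of a library spread by at most 0.205%, and for miR-124 the 3 rows by at most 0.670%, so these data do not tell the loci apart. miR-9-3p was the exception. Its rows for mir-9-1, mir-9-2 and mir-9-5 stayed within 10 reads of each other, but the row of mir-9-3 fell short at 48 hpf. Its shortfall against the highest of the other rows was 3 of 88 reads, 2 of 93, 0 of 41 and 1 of 95 at 24 hpf, in the order MO-Ct batch 1 and 2, MO-Tbx5a batch 1 and 2. At 48 hpf it was 195 of 780 reads in the MO-Ct library, or 25.0% (95% exact interval 22.0% to 28.2%), and 533 of 2671 in the MO-Tbx5a library, or 19.96% (18.5% to 21.5%). At 24 hpf the upper limits of these intervals were 5.73% to 9.64%, so the 48 hpf shares lay above what counting error allowed in the earlier libraries. Which read sequences were missing from the mir-9-3 row cannot be read from a table of sums. At 24 hpf, leaving this row out moved the arm ratio from 34.3 to 34.1 at most, and at 48 hpf from 32.5 to 30.5 and from 32.3 to 30.7.

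**Figure D5:**
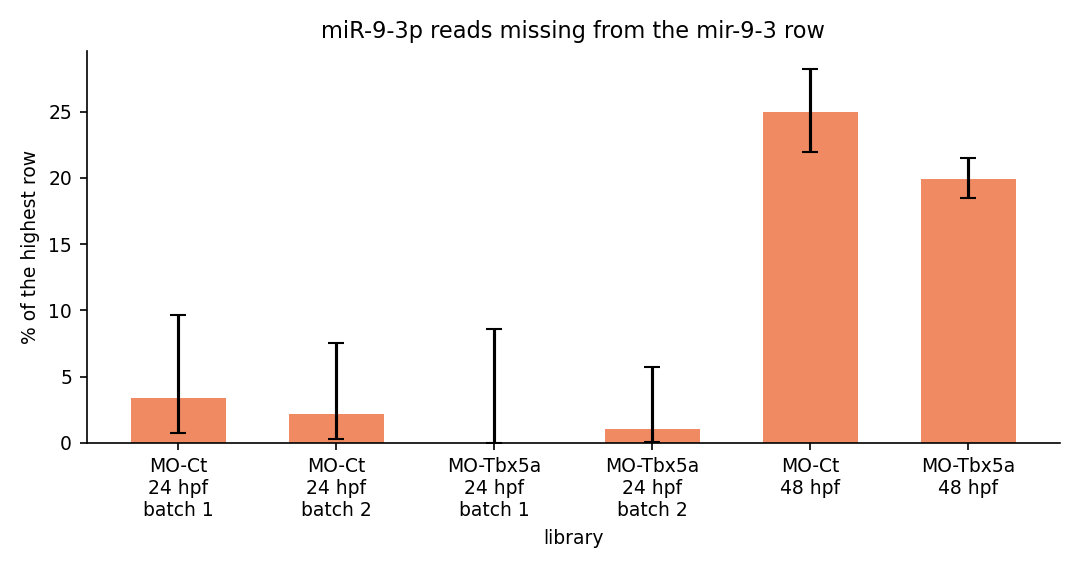
Reads of miR-9-3p missing from the mir-9-3 row as a percentage of the highest other precursor row, in each library, with bars from 0 and error bars for the 95% exact binomial interval (counting error only). The shortfall is 25.0% and 19.96% at 48 hpf and at most 3.41% at 24 hpf.

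The ratio between miR-9-5p and miR-124, which sets the progenitor miRNA against the neuronal one, was 15.3 and 18.7 for MO-Ct at 24 hpf and 13.05 and 17.1 for MO-Tbx5a. At 48 hpf it was 46.8 in the MO-Ct library and 62.1 in the MO-Tbx5a library. The 24 hpf groups overlapped in this ratio, and both 48 hpf values were higher than all 4. As reads of different miRNAs are captured with different efficiency, only the change of this ratio can be read and not its size.

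Profiles over the 6 libraries were also compared, as the root mean square difference between centred log2(value + 2) values, with 213 other miRNAs. This is a description, since the points share libraries and the 48 hpf libraries dominate it. The nearest profile to miR-9-5p was that of miR-9-3p, at 0.23, and the reverse held as well. For miR-9-5p there followed miR-451, an erythroid miRNA, at 0.37, let-7c, of a family that times development, at 0.41, miR-125a, a relative of the worm lin-4, at 0.44, and miR-145 of smooth muscle at 0.46. For miR-9-3p the next were miR-451 at 0.33, miR-125b at 0.43, miR-143 at 0.45 and miR-145 at 0.45. miR-124 was only the 24th nearest to miR-9-5p and the 21st nearest to miR-9-3p. Nearest to miR-124 were miR-135c at 0.12, miR-138 at 0.16, miR-181a-5p at 0.19, miR-2188-5p at 0.21 and miR-153c at 0.25, of which miR-138 and miR-153c belong to the neural list.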

How the data were processed

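Small RNA from pools of 50 zebrafish embryos was sequenced in 6 libraries. The authors demultiplexed reads with CASAVA, mapped them to miRBase hairpins with some mismatches and length variation allowed, summed them per precursor and mature pair and divided by DESeq size factors, so the deposited values are a normalized read signal. Division by the value of 1 read returned whole reads (within 0.1) for 99.6% to 100% of values above 0, which gave depth and counting intervals. Averaging the rows of 1 mature name keeps a read from being counted at several loci of that name. A read shared by different mature names may still be counted under each. Values were compared as log2(value + 2) with limma 3.58.1 in R 4.3.3, with a variance trend, Benjamini-Hochberg adjustment over all miRNAs whose value reached 10 in 2 or more libraries, and no batch block; the code was tested on simulated data. P-values measure the spread between libraries, moderated by a trend over all miRNAs. In the morpholino comparison before 48 hpf and the difference between stages, that spread came from the embryo batches alone. The trend there outweighed a miRNA's own batches (266.7 or infinite prior against 2 residual degrees of freedom). In the additive fit by stage the spread also held the disagreement between the lone 48 hpf libraries. For miR-9-5p these gave log2 rises of 1.99 and 4.45. The named miRNAs are the members, the neural list and the 5 nearest profiles of each member. A rule on shared seeds was not applied, as no mature sequences were used here. Members and lists were chosen with earlier results of these data known. Alternatives covered scaling, pseudocount, filter, variance trend, single rows, left-out libraries and exchanged 48 hpf names.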

Additional observations from a re-analysis of the deposited data

Results flagged for a closer look

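The morpholino contrast at 48 hpf, as labelled, lay above that at 24 hpf for each member, and limma called the difference on the assumption that the lone 48 hpf libraries vary like the 24 hpf batches. On the log2 scale it was 2.46 for miR-9-5p, 2.31 for miR-9-3p and 1.86 for miR-124, and with the 48 hpf names exchanged it was negative for all 3. The study's own 48 hpf fold changes put miR-9-5p and miR-124 lower in MO-Tbx5a, as the exchanged names do. Across its 48 hpf list of modulated miRNAs the direction is likewise the reverse of the labelled one, except for miR-7b. Between the 48 hpf libraries labelled MO-Tbx5a and MO-Ct, the miR-430 share (5.15% against 15.2%) and the summed neural (1.62% against 0.993%), blood (0.0502% against 0.0227%), epidermis (2.51% against 3.19%) and muscle (0.977% against 1.09%) lists also differed, and their part was not tested.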

How the results depend on the processing

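Both miR-9 arms kept their direction and call by stage under all 21 alternatives run, where exchanged 48 hpf names cannot change a value. These alternatives are not all independent. Leaving out a 48 hpf library gave the same value as the libraries of the other morpholino alone, 1.99 or 4.45 for miR-9-5p. Leaving out the mir-9-3 row does not touch miR-9-5p. In the difference between stages both arms kept direction and call under 13 of 14. The exception there was the exchange of the 48 hpf library names, added after seeing the data, which gave -1.57 for miR-9-5p, -1.73 for miR-9-3p and -1.34 for miR-124, and at 48 hpf log2 ratios of -2.02, -2.02 and -1.60. Left-out libraries gave 1.99 to 4.45 for miR-9-5p by stage, 1.76 to 4.07 for miR-9-3p and 0.51 to 2.37 for miR-124, whose value was 0.51 in MO-Ct libraries alone and not called. The miR-124 difference between stages ran from 1.78 to 1.95 when a 24 hpf library was left out. The miR-9 arm ratio by morpholino at 24 hpf ran from -0.43 to 0.12. At 48 hpf, equal library totals gave log2 ratios of 2.18 for miR-9-5p (2.175), 2.18 for miR-9-3p and 1.76 for miR-124, and median-ratio size factors gave 2.14 for miR-9-5p.

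With batch number as a replicate block, miR-9-5p at 24 hpf stayed at -0.44 and was called (adjusted p = 0.000349, limma), against 0.0628 to 0.851 under its other settings, and calls over all miRNAs went from 16 to 39. The labels give only a number for these batches and do not say whether a number is shared between morpholinos. The batch deviations of MO-Ct and MO-Tbx5a correlated at r = 0.279 across 210 miRNAs in these 2 pairs, which cannot settle whether the batches were paired. The other settings gave 0 to 17 calls at 24 hpf, 15 to 75 in the difference between stages against 71, and 3 to 11 of the arm ratios by stage against 10. The limits are the lone 48 hpf libraries and, at 24 hpf, 41 to 95 reads of miR-9-3p. Count tests by edgeR and DESeq2 planned for recovered reads were not run. The study's own count test (DESeq) called miR-9-5p lower in MO-Tbx5a at 24 hpf, which the main fit here did not. Limma-voom, added after seeing the data, changed no call of a member at 24 hpf, by stage or in the difference between stages.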
